A study of Mus musculus with 6 samples.

Results

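The 70 genes described here reached a higher level in C2C12 cells at day 2 of differentiation than at both day 0 and day 4. They were selected on measured values: the level at day 2 had to be at least 8 on the log2 scale, and it had to lie at least 1.5-fold above both day 0 and day 4, where a fold is taken from the difference of log2 values. Of 18194 genes read by the array, 77 met these numbers. Ifi27, Ifi27l2a, Ifit1, Ifit3, Irf9, Oasl2 and Mvd met them but were left out by name, since the rule set aside several interferon-induced families, antioxidant genes, collagens and the cholesterol synthesis genes, which leaves the 70. Because day 0, day 2 and day 4 chose the members, their differences between these arrays are a description with no test.

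C2C12 is a mouse myoblast line that fuses into multinucleated myotubes when serum is reduced. Parental cells were measured in growth medium with 10% fetal bovine serum, and then in differentiation medium with 2% horse serum on day 0, immediately after the switch, and on days 2 and 4. Stable transfectants of the same line, selected for 2 weeks with 500 µg/ml of G418, were measured at day 0. They expressed a short hairpin against the repressor Rp58 (shRp58) or held a control vector, for which the labels give both LacZ and a control hairpin. Whether each stable line was a pool or a single clone is not stated in the labels. Each of the 6 groups was 1 Affymetrix mouse 430 2.0 array, so there is no replicate spread, no standard deviation and no p-value for any value below, and precision is limited by this number of arrays.

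Zbtb18, the gene for the transcriptional repressor Rp58, stood at 11.16 in shRp58 cells and 11.69 in control vector cells, a difference of -0.53. In parental cells it stood at 11.18 in growth medium, at 11.88 on day 0, 12.86 on day 2 and 13.06 on day 4, so it was not itself lower at day 4 than at day 2. All 10 markers of differentiated muscle, such as Myog and Myh3, were at least 1.5-fold higher at day 2 than at day 0, and all 8 myoblast markers were measured at 8 or more. Array medians over the probe sets were 8.26 to 8.27 for parental cells and 7.15 for both stable lines. Levels are therefore compared within the parental arrays or between the stable arrays only, and every level and difference below is in log2 units.

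Muscle differentiation runs through an ordered set of states. Myoblasts leave the cell cycle, become myocytes that express the early contractile genes, align, and fuse, and the contractile genes then stay on as myotubes mature. Signalling molecules, secreted factors, protective enzymes and cell surface proteins are also made by these cells, and some act between neighbouring cells. Interferon-induced genes, which several members belong to, encode antiviral proteins and are switched on through promoter elements bound by the STAT and IRF factors.

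Promoter sequences are shown for 4 members because they hold the motifs on which the comparison of promoters below turns. RefSeq promoter windows on GRCm38.p6 were matched for 52 of the 70 genes. The 250 bases before the start of each gene are given 5′ to 3′ on the gene's own strand, and the 50 bases after the start, which were also searched, are not shown. Capitals mark the interferon response motif, GAAA and GAAA with any 2 bases between them, in the first 3 sequences and, in the last, the letters of the Rp58 core ACATCTG read on the opposite strand. Bst2 lies at chr8:71537473-71537722 on the minus strand, Irgm1 at chr11:48871421-48871670 on the minus strand, Irgm2 at chr11:58214727-58214976 on the plus strand and Igfbp4 at chr11:99040994-99041243 on the plus strand.
Bst2: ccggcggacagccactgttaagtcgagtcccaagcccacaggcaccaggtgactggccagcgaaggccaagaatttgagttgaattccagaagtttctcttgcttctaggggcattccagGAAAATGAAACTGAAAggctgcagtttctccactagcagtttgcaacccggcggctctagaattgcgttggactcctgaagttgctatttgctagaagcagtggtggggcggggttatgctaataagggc
Irgm1: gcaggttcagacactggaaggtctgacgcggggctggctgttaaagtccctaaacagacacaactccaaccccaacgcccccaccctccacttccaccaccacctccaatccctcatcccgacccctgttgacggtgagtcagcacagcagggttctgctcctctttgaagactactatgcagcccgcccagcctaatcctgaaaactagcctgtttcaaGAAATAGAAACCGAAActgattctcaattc
Irgm2: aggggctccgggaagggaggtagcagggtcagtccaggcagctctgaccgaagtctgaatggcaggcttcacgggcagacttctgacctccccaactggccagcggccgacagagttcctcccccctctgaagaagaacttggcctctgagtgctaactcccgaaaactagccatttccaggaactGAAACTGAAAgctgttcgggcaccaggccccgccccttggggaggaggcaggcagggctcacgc
Igfbp4: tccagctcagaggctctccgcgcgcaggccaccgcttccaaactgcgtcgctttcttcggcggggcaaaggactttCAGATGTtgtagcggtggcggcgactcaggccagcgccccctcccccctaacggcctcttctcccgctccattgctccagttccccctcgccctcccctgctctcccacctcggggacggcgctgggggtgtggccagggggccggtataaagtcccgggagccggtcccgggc
In Bst2 a pair of overlapping matches began 130 and 124 bases before the start, and in Irgm1 a pair began 30 and 24 bases before it. The match in Irgm2 began 64 bases before the start, and the Rp58 core in Igfbp4 began 174 bases before it.

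At the level of the whole group, the median level of the 70 members stood at 8.79 in growth medium, at 9.46 on day 0, 10.50 on day 2 and 9.59 on day 4. The members thus stood at nearly the same median before and after the peak. The median member was higher at day 2 by 0.92 than at day 0 and by 0.82 than at day 4. Over the 13092 genes whose highest value reached 8, 6.76% were at least 1.5-fold higher at day 2 than at day 0 and 4.23% were at least 1.5-fold higher at day 2 than at day 4, and all members are so by the rule. Of the 855 genes of the required level that were 1.5-fold higher at day 2 than at day 0, 9.01% were also 1.5-fold higher than at day 4, and the other 778 are called sustained below. At day 4, 636 of the 778 were still at least 1.5-fold above day 0 and 142 were within 1.5-fold of it. At least 2-fold differences were seen for 30 members against day 0 and for 25 against day 4, and 15 members had both. In a bulk culture, fewer cells of a type and less RNA per cell cannot be told apart.

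**Figure D1:**
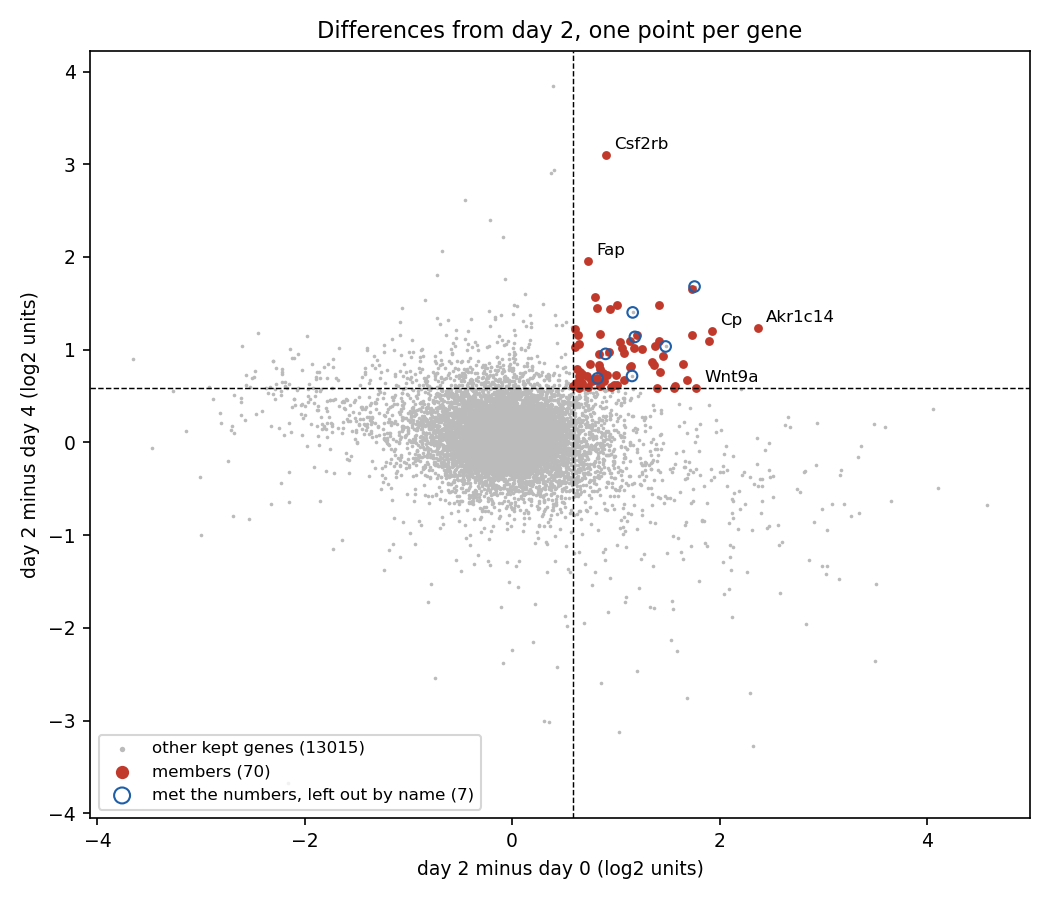
Each point is 1 gene, with day 2 minus day 0 on the horizontal axis and day 2 minus day 4 on the vertical axis, both in log2 units, and dashed lines at 1.5-fold. The 70 members (filled) occupy the upper right corner, Csf2rb has the largest difference from day 4 at 3.10 and Akr1c14 the largest from day 0 at 2.37, and the 7 genes left out by name are circled.

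The plot of both differences shows how far each member lies from the thresholds and how few genes share the corner. The members just inside, by the smaller of their differences, were Rbl2 at 0.59, Wnt9a at 0.59, Ctso at 0.59, Fbxo32 at 0.59 and Spsb1 at 0.59. The genes just outside were Inpp4b, at 0.58 above day 4, Bmf, at 0.58 above day 4, Anpep, at 0.57 above day 0, 2310043M15Rik, at 0.57 above day 4, and Mrc2, at 0.57 above day 0. The edge of the group is therefore set by differences in the second decimal.

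By the smaller of the 2 differences, the highest peak belonged to Ctrb1, which encodes chymotrypsinogen B1, the precursor of a digestive protease best known from the pancreas. It stood at 8.89 in growth medium, at 9.33 on day 0, 11.06 on day 2 and 9.41 on day 4. Day 2 was the single high array, 3.33-fold above day 0 and 3.15-fold above day 4. F3, tissue factor, the surface receptor that starts blood clotting, stood at 7.86 in growth medium, at 8.62 on day 0, 10.04 on day 2 and 8.55 on day 4. It was 2.67-fold higher at day 2 than at day 0 and 2.80-fold higher than at day 4. Thbd, thrombomodulin, which turns thrombin towards anticoagulant activity, stood at 9.53 in growth medium, at 10.84 on day 0, 11.64 on day 2 and 10.07 on day 4. Genes for a starter and for a brake of clotting are thus both members, and their day 2 level above days 0 and 4 follows from the rule. At day 4 Thbd was below its own day 0 level by 0.78.

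Serping1, the inhibitor of the first complement protease, stood at 7.63 in growth medium, at 9.42 on day 0, 10.56 on day 2 and 9.74 on day 4, so it stayed above day 0 by 0.32. Fap, a serine protease of the surface of activated fibroblasts, stood at 6.27 in growth medium, at 8.27 on day 0, 8.998 on day 2 and 7.04 on day 4. It was high at day 0 and day 2 and low on either side, and its day 4 level was below day 0 by 1.23. Its growth medium and day 4 values lie under 8, where probe sets are dim and sizes are not exact.

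**Figure D2:**
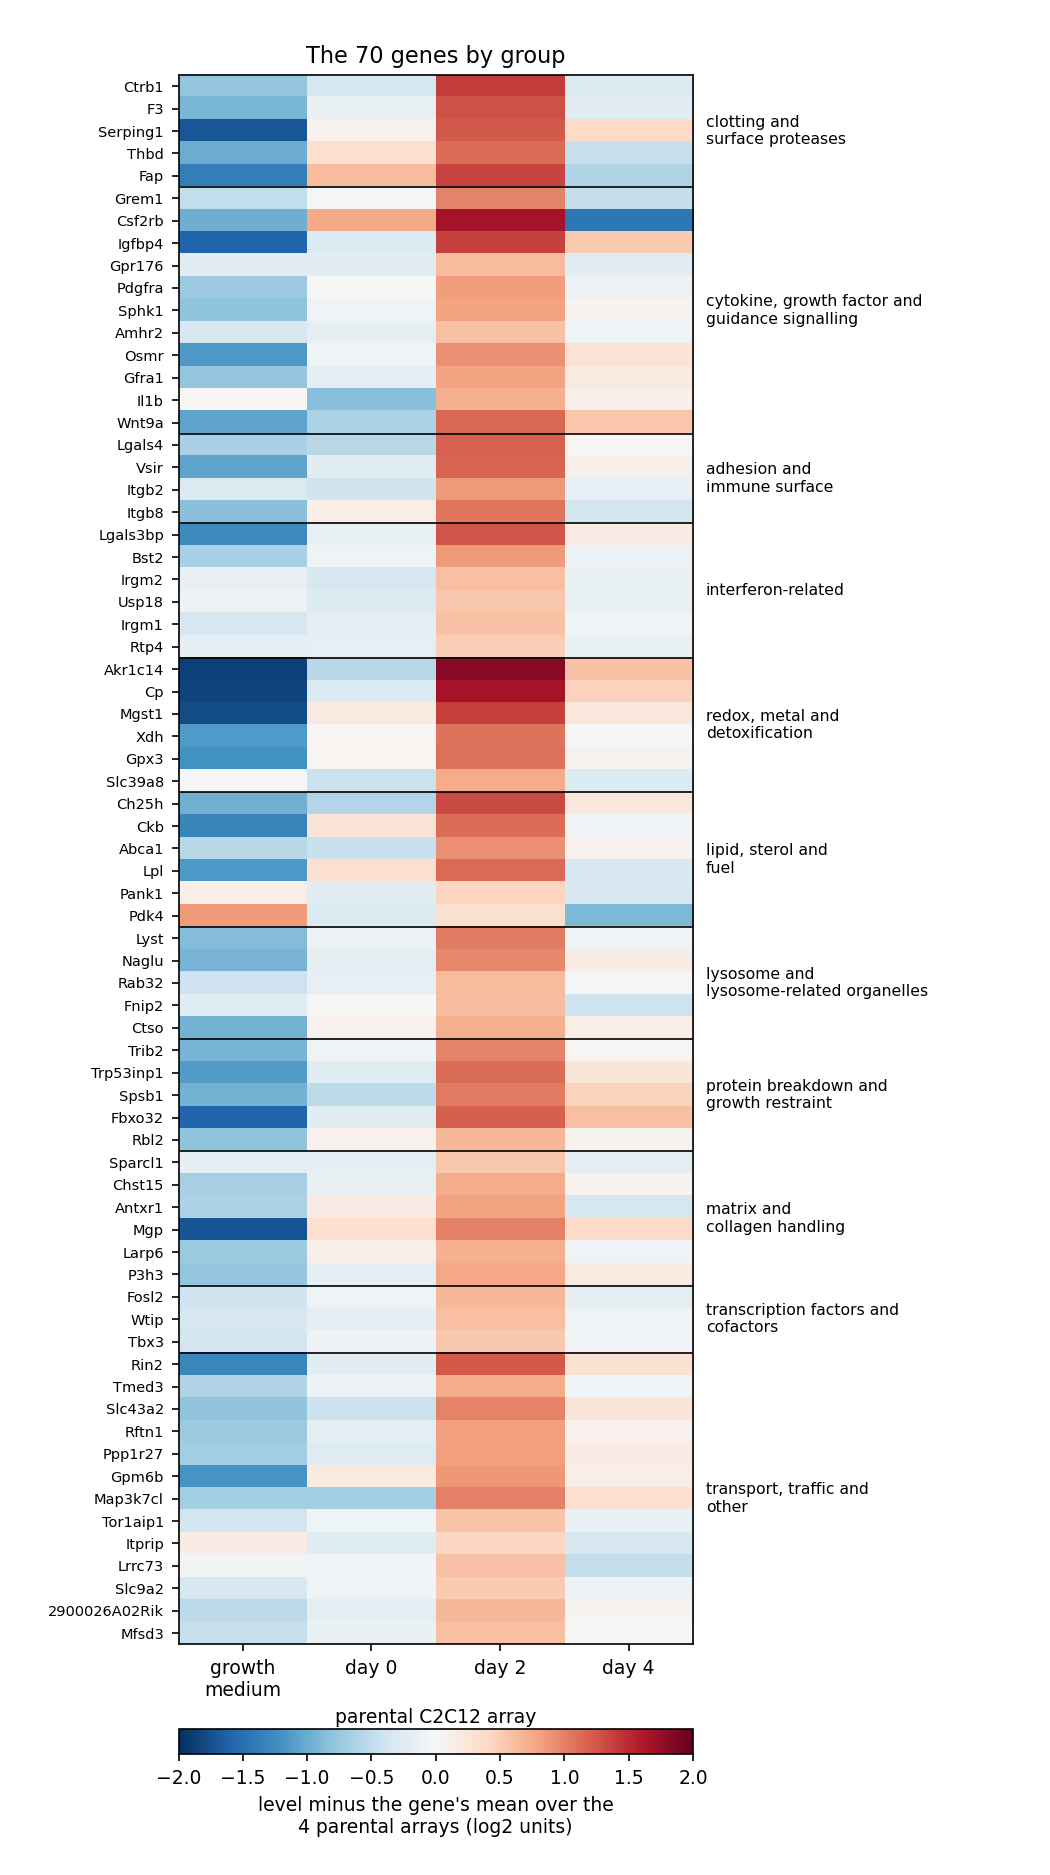
Each row is 1 of the 70 genes, grouped by role, and each column 1 parental array; colour gives the level minus the gene's own mean over the 4 parental arrays, in log2 units. Day 2 is the highest column in 69 rows and Pdk4, where growth medium is highest, is the exception, while the day 4 column ranges from well below day 0 (Csf2rb, -2.19) to well above it (Wnt9a, 1.19).

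The map of courses by role shows that the level before and after the peak differed between members. Among genes of signalling, Csf2rb encodes the shared beta subunit of the receptors for GM-CSF and related cytokines. It stood at 7.73 in growth medium, at 9.45 on day 0, 10.36 on day 2 and 7.26 on day 4. It was already high at day 0, and its loss of 3.10 between day 2 and day 4, which is 8.55-fold, was the largest of the members. Its other probe set gave 8.68 on day 0, 9.70 on day 2 and 7.32 on day 4. Osmr, the receptor subunit for oncostatin M, stood at 8.94 in growth medium, at 10.02 on day 0, 11.00 on day 2 and 10.38 on day 4. Pdgfra, a receptor for platelet-derived growth factor, stood at 8.86 in growth medium, at 9.59 on day 0, 10.42 on day 2 and 9.46 on day 4. By the rule the 3 receptors stood higher at day 2 than at days 0 and 4, but Pdgfra and Osmr each met it with 1 of 3 probe sets only. The other 2 of Pdgfra stood under 8 at day 2, and 1 further set of Osmr, at 8.93 on day 2, gave differences of 0.42 and 0.38. The list of cytokine and growth factor receptors, which holds these 3 members, had 41 kept genes. On it, 6 were 1.5-fold higher at day 2 than at day 0 and 2 were lower. The 3 members are among the 6 by the rule. Over all genes kept, the shares were 6.76% and 8.40%. Among the 6, Erbb3 and Ghr are not members, were each higher by 1.29 and were not lower at day 4.

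Secreted signalling molecules were among them as well. Grem1, an antagonist of bone morphogenetic proteins, stood at 10.64 in growth medium, at 11.12 on day 0, 12.13 on day 2 and 10.65 on day 4. Igfbp4, which binds insulin-like growth factors and limits their action, stood at 9.39 in growth medium, at 10.71 on day 0, 12.35 on day 2 and 11.51 on day 4. Wnt9a, a Wnt ligand, stood at 8.89 in growth medium, at 9.31 on day 0, 11.09 on day 2 and 10.50 on day 4. Grem1 was back at its growth medium level by day 4, whereas Igfbp4 and Wnt9a kept part of their gain, with day 4 above day 0 by 0.80 and 1.19. Il1b, the cytokine interleukin-1 beta, stood at 7.86 in growth medium, at 6.997 on day 0, 8.56 on day 2 and 7.95 on day 4, so its growth medium level was above its day 0 level. The other signalling members were Gfra1, the coreceptor for a glial growth factor, Sphk1, which makes sphingosine-1-phosphate, the orphan receptor Gpr176 and Amhr2, the receptor for anti-Müllerian hormone. Their day 2 levels ran from 8.44 for Amhr2 to 10.68 for Gfra1.

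Surface proteins of immune cells and adhesion also peaked. Itgb2, the beta subunit of the leukocyte integrins, stood at 7.74 in growth medium, at 7.64 on day 0, 8.89 on day 2 and 7.88 on day 4. Vsir, a checkpoint protein that restrains T cells, stood at 8.59 in growth medium, at 9.41 on day 0, 10.79 on day 2 and 9.75 on day 4. Itgb8, an integrin subunit that activates latent TGF-beta, stood at 8.92 in growth medium, at 9.88 on day 0, 10.83 on day 2 and 9.40 on day 4. Lgals4, a galectin known from gut epithelium, stood at 6.27 in growth medium, at 6.37 on day 0, 8.10 on day 2 and 6.95 on day 4. The day 2 level of these 4 above days 0 and 4 follows from the rule, and Lgals4 barely crossed the level of 8 there. Of 13 leukocyte markers measured, 0 were at least 1.5-fold higher at day 2 than at day 0, their summed level was 12.60 on day 0, 12.72 on day 2 and 12.59 on day 4, and the defining marker Ptprc stood between 5.43 and 5.80 on all parental arrays. Laptm5, of the same list, stood at 10.98 in growth medium, at 10.33 on day 0, 10.34 on day 2 and 10.06 on day 4, and 8 of the 13 markers reached 8 on some array. No member is on the leukocyte, endothelial, adipocyte, or osteoblast and cartilage marker lists, and 0 of the markers on the other 3 of these lists were 1.5-fold higher at day 2 than at day 0. The summed level of the adipocyte list was 11.71 on day 0, 11.82 on day 2 and 11.51 on day 4. Its brightest gene, Cebpa, stood at 10.44 on day 0, 10.82 on day 2 and 10.23 on day 4. Fabp4 of that list stood at 7.90, 7.75 and 8.21 on the same days, and Adipoq at 5.57, 5.91 and 5.76.

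**Figure D3:**
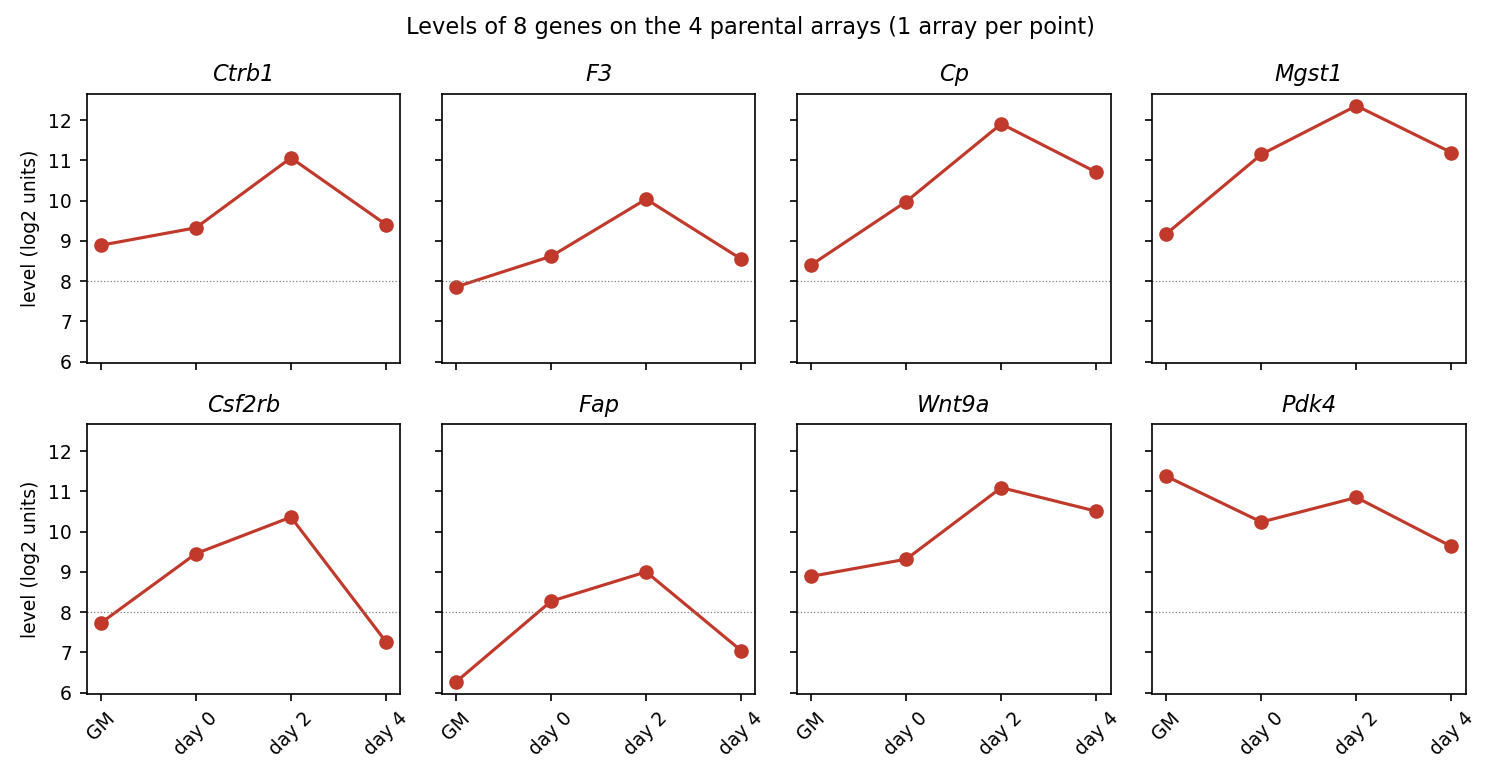
Levels of 8 members (log2 units, 1 array per point) in growth medium (GM) and at day 0, day 2 and day 4, with a dotted line at 8. Ctrb1, F3, Cp and Mgst1 peak at day 2, Csf2rb and Fap are below day 0 by day 4, Wnt9a stays high at day 4, and Pdk4 is highest in growth medium.

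The plot of 8 members sets these shapes side by side. The group called interferon-related here holds 6 members that the naming rule did not remove. Xdh, a member on the interferon-induced list below, is grouped with the redox, metal and detoxification genes instead. Lgals3bp, a secreted galectin-binding glycoprotein, stood at 8.79 in growth medium, at 9.90 on day 0, 11.32 on day 2 and 10.22 on day 4. Bst2, tetherin, which holds budding virus at the membrane, stood at 7.80 in growth medium, at 8.38 on day 0, 9.31 on day 2 and 8.33 on day 4. Usp18, a protease that damps interferon receptor signalling, stood at 7.42 in growth medium, at 7.25 on day 0, 8.07 on day 2 and 7.38 on day 4. All 3 were lower at day 4 than at day 2, which the rule required, and Usp18 only just reached 8. Irgm1 and Irgm2, immunity-related GTPases, stood at 11.88 and 8.62 at day 2, against 11.11 and 7.70 at day 0 and 11.20 and 7.89 at day 4. Rtp4, a receptor chaperone that interferon induces, stood at 9.63 at day 2, against 8.99 at both day 0 and day 4.

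A wider list of interferon-induced genes held 33 that reached 8 on some array. Of these, 12 were at least 1.5-fold higher at day 2 than at day 0 and 1 was lower, against 6.76% and 8.40% of all genes kept. At least 1.5-fold higher at day 2 than at day 4 were 10, against 4.23%. The 6 members on the list are in both counts by the rule. The median of the list was 0.24 for day 2 minus day 0 and 0.43 for day 2 minus day 4, against -0.02 and 0.03 over all genes kept. Its 6 members are Bst2, Irgm1, Lgals3bp, Rtp4, Usp18 and Xdh. Another 6 were 1.5-fold above day 0 but missed the day 4 threshold. Dtx3l was 0.78 above day 0 and 0.53 above day 4, Parp14 0.75 and 0.54, Gbp2 0.69 and 0.56, and Xaf1 1.08 and 0.48. Tor3a was 0.99 above day 0 and Igtp 0.93, and their day 2 minus day 4 differences were -0.14 and 0.13.

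Promoters of the members were read for the interferon response motif, on both strands. It was present in 8 of the 52 windows, 15.4%, against 3.40% of the 10477 kept genes with a window. Among the interferon-related members 3 of the 4 with a window held it, namely Bst2, Irgm1 and Irgm2, whose sequences are given above. The other 5 were Akr1c14, Ctso, Fosl2, Gfra1 and P3h3, so outside that group the share was 5 of 48, 10.4%. The share was not tested, a match is only a run of letters in this window, and of the genes left out by name Ifit1 and Ifit3 held it too.

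For the other motifs searched, the shares of members and of all genes were closer to each other. The Rp58 core ACATCTG was in 2 of the 52 windows, 3.85% against 3.34% of all genes, in Igfbp4 and Irgm2. Without the 50 bases after the start it was in Igfbp4 alone, 1.92% against 2.93%. The E-box CAGCTG, the kind bound by the myogenic factors, was in 23.1% of members' windows against 18.5%, and any CANNTG in 39 of 52, 75%, against 68.3%, a class that holds the first. The STAT motif TTCNNNGAA was in 9.62% against 8.23%, the NF-kappa B motif, GGGA and CC with any 4 bases between them, in 32.7% against 30.2%, the antioxidant motif TGACNNNGC in 23.1% against 16.3%, the MEF2 motif, CTA and TAG with any 4 bases between them, in 1.92% against 3.96%, and the cyclic AMP motif TGACGTCA in 3.85% against 3.42%. The TATA box TATAAA was in 10 of 52, 19.2% against 9.92%. With 52 windows, 1 gene is a share of about 2 percentage points.

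Genes of redox chemistry, metal handling and detoxification made up 6 members, all at least 2-fold above both day 0 and day 4 at day 2. Cp, ceruloplasmin, the copper enzyme that oxidises iron in plasma, stood at 8.40 in growth medium, at 9.98 on day 0, 11.91 on day 2 and 10.71 on day 4. Akr1c14, an aldo-keto reductase of steroids, stood at 5.01 in growth medium, at 6.32 on day 0, 8.69 on day 2 and 7.46 on day 4. Mgst1, a membrane-bound glutathione transferase, stood at 9.18 in growth medium, at 11.15 on day 0, 12.36 on day 2 and 11.19 on day 4. Cp and Akr1c14 were still 1.5-fold above day 0 at day 4, while Mgst1 was within 0.04 of it. Gpx3, the secreted glutathione peroxidase, stood at 9.80 in growth medium, at 11.04 on day 0, 12.09 on day 2 and 11.07 on day 4. Xdh, xanthine dehydrogenase of purine breakdown, stood at 9.37 at day 2, against 8.33 at day 0 and 8.29 at day 4, and Slc39a8, a zinc importer, at 8.04 at day 2, against 6.87 at day 0 and 7.03 at day 4. Akr1c14 and Slc39a8 lay under 8 in growth medium, at day 0 and at day 4, where sizes are not exact. In all, 10 members lay under 8 at both day 0 and day 4. The peak of Cp was seen by 5 of its 8 probe sets. In the complement and acute phase list, which holds Cp and Serping1, 5 of 12 genes were 1.5-fold higher at day 2 than at day 0. Cp and Serping1 are among the 5 by the rule. Over all genes kept, the share was 6.76%. C1ra, C1s1 and Cd55, the other 3, were higher by 1.46, 1.35 and 1.10 and were not lower at day 4. The list of other antioxidant and glutathione genes holds Gpx3 and Mgst1. Of its 37 genes, 2 were 1.5-fold higher at day 2 than at day 0 and 3 lower, against 6.76% and 8.40% of all genes kept. At day 2, 13 were 1.5-fold higher than at day 4, against 4.23%. Gpx3 and Mgst1 are in both counts of higher genes by the rule. Apart from Gpx3 and Mgst1, no gene of that list was 1.5-fold higher at day 2 than at day 0.

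Genes of lipid and fuel metabolism differed in their levels before the peak. Ch25h, which makes an oxysterol from cholesterol, stood at 7.87 in growth medium, at 8.24 on day 0, 10.14 on day 2 and 9.05 on day 4. Abca1, the exporter of cholesterol to lipoproteins, stood at 8.08 in growth medium, at 8.18 on day 0, 9.55 on day 2 and 8.71 on day 4. Lpl, lipoprotein lipase, stood at 11.00 in growth medium, at 12.47 on day 0, 13.28 on day 2 and 11.84 on day 4. Both sterol genes were within 1.5-fold of growth medium at day 0, whereas Lpl was already 1.46 above growth medium at day 0 and lay 0.63 below day 0 at day 4. Ckb, the brain-type creatine kinase, stood at 11.20 in growth medium, at 12.78 on day 0, 13.63 on day 2 and 12.46 on day 4. Pdk4, which shuts pyruvate out of oxidation, stood at 11.37 in growth medium, at 10.24 on day 0, 10.85 on day 2 and 9.63 on day 4, and so was the only member with its highest value before differentiation. Pank1, which starts coenzyme A synthesis, stood at 9.64 at day 2, against 8.98 at day 0 and 8.87 at day 4.

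Proteins of the lysosome and its relatives made up 5 members. Lyst, the trafficking protein lost in the beige mouse, stood at 8.79 in growth medium, at 9.54 on day 0, 10.68 on day 2 and 9.59 on day 4. Naglu, a lysosomal enzyme of heparan sulfate breakdown, stood at 8.66 in growth medium, at 9.41 on day 0, 10.55 on day 2 and 9.73 on day 4. The cathepsin Ctso, the GTPase Rab32 and Fnip2, a partner of folliculin, had day 2 levels of 11.46, 9.56 and 10.25. A wider lysosome list of 35 kept genes had 1 member, Ctso. Of the list, 3 genes were 1.5-fold higher at day 2 than at day 0, against 6.76% of all genes kept. Ctso is 1 of the 3 by the rule. Peaks were thus not seen across the lysosome list.

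Of the 5 genes of protein breakdown and growth restraint, Fbxo32 and Spsb1 were still 1.5-fold above day 0 at day 4. Fbxo32, the muscle ubiquitin ligase subunit atrogin, stood at 9.46 in growth medium, at 10.85 on day 0, 12.25 on day 2 and 11.66 on day 4. Trp53inp1, a p53-induced protein of autophagy and cell death, stood at 9.38 in growth medium, at 10.26 on day 0, 11.62 on day 2 and 10.75 on day 4. Spsb1, an adaptor of a ubiquitin ligase, stood at 9.91 in growth medium, at 10.33 on day 0, 11.89 on day 2 and 11.30 on day 4. Rbl2, a pocket protein of resting cells, stood at 10.98 at day 2, against 10.40 at day 0 and 10.37 at day 4, and Trib2, a pseudokinase, at 10.44 at day 2, against 9.36 at day 0 and 9.48 at day 4. The p53 and cell cycle exit list, which holds Trp53inp1 and Rbl2, had 8 of 33 genes 1.5-fold higher at day 2 than at day 0 and 5 lower. Both members are among the 8 by the rule. Over all genes kept, the shares were 6.76% and 8.40%. The other 6 that were higher were not lower at day 4 than at day 2, such as Cdkn1a at 13.52 on day 0, 14.24 on day 2 and 14.51 on day 4.

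Of the matrix and collagen genes, Mgp, the matrix protein that restrains calcification, stood at 11.73 in growth medium, at 13.79 on day 0, 14.47 on day 2 and 13.83 on day 4. Antxr1, a collagen-binding receptor, stood at 11.17 at day 2, against 10.53 at day 0 and 10.01 at day 4. Sparcl1, Chst15, Larp6 and P3h3 had day 2 levels of 8.93, 11.45, 9.16 and 9.01; Chst15 sulfates chondroitin chains, Larp6 binds collagen messages and P3h3 belongs to the collagen hydroxylases. The list of matrix proteases, inhibitors and matricellular genes had 13 of 46 genes 1.5-fold higher at day 2 than at day 0. Over all genes kept, the share was 6.76%. Of the 13, 2 were members, which are counted there by the rule, and Postn, Dcn and Lum stood higher at day 4 still. Lists of fusion genes, myogenic regulators and early contractile isoforms held 34, 27 and 38 kept genes and no member, with 8, 7 and 27 of them 1.5-fold higher at day 2 than at day 0, and the 10 differentiated muscle markers held none either.

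The transcription factors and cofactors were Fosl2, an AP-1 subunit, Tbx3, a T-box repressor, and Wtip, a LIM domain protein. Fosl2 stood at 10.88 in growth medium, at 11.20 on day 0, 11.95 on day 2 and 11.11 on day 4. Among the 13 members of no clear common role, Map3k7cl was higher at day 2 by 1.68 than at day 0 and by 0.67 than at day 4. Rin2, an exchange factor for Rab GTPases, was higher at day 2 by 1.46 than at day 0 and by 0.93 than at day 4. The others were the amino acid transporter Slc43a2, the sodium-proton exchanger Slc9a2, Mfsd3, Tmed3, the nuclear membrane protein Tor1aip1, Gpm6b, the lipid raft protein Rftn1, Itprip, Ppp1r27, Lrrc73 and 2900026A02Rik. Their day 2 levels ran from 8.01 for Lrrc73 to 12.29 for Tmed3.

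What came before the peak was measured by growth medium, an array that entered the choice only through the probe set. At least 1.5-fold above growth medium at day 2 were 67 of 70 members, 95.7%, against 16.9% of all genes and 88.9% of the sustained genes, where the day 2 array was used to choose both groups. At day 0, 61 members were above growth medium and 33, 47.1%, were at least 1.5-fold above it, against 11.0% of all genes and 38.6% of the sustained genes. At least 1.5-fold lower at day 0 than in growth medium were 2 members, Pdk4 by 1.14 and Il1b by 0.87, against 2.94% of all genes. The median member differed by 0.53 and the median gene by 0.10, and the members' median lay 0.43 above that of all genes. The sustained genes had a median of 0.40, and the differentiated muscle markers a median level of 12.59 at day 0 and 9.68 in growth medium, so an early difference was not confined to the members. The rule used the day 0 array, so these are descriptions. The largest early differences were those of Mgp at 2.07, Fap at 2.00, Mgst1 at 1.97, Serping1 at 1.78 and Csf2rb at 1.72, and 9 members had the reverse order.

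What came after the peak was uneven. At day 4, 55 members were within 1.5-fold of their day 0 level and 33 of these were within 0.2. The 10 members still at least 1.5-fold above day 0 were Akr1c14, Cp, Ch25h, Igfbp4, Slc43a2, Map3k7cl, Il1b, Spsb1, Fbxo32 and Wnt9a, 14.3% of members, against 8.41% of all genes. The 5 members at least 1.5-fold below day 0 were Csf2rb, Fap, Thbd, Lpl and Pdk4, against 14.1% of all genes.

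The hairpin arrays did not enter the rule except in the choice of probe set. Between them, 62 of 70 members were lower in shRp58 cells than in control vector cells, and the median difference was -0.32, against -0.01 over all genes. At least 1.5-fold lower were 13 members, 18.6%, against 2.28% of all genes, and 0 members were at least 1.5-fold higher, against 1.43% of all genes. No member was 2-fold apart. Among sustained genes, 230 of 778, 29.6%, were lower by 1.5-fold or more in shRp58 cells, with a median of -0.38; no test of the difference between the groups of genes was possible. All 10 differentiated muscle markers were also lower in shRp58 cells by 1.5-fold or more, with a median difference of -1.13 and a summed level of 15.53 in shRp58 cells and 16.51 in control vector cells, and their part in the members' differences was not tested.

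The 13 were Usp18, Thbd, Cp, Lpl, Lgals3bp, Bst2, F3, Igfbp4, Osmr, Itgb8, Serping1, Gpx3 and Irgm2. Usp18 stood at 7.33 in shRp58 cells and 8.23 in control vector cells, a difference of -0.90. Thbd stood at 9.21 in shRp58 cells and 10.09 in control vector cells, a difference of -0.87. Cp stood at 9.40 in shRp58 cells and 10.22 in control vector cells, a difference of -0.82. The clotting and surface protease group, which also holds the protease inhibitor Serping1, had 3 of its 5 genes among the 13. Of the 6 interferon-related genes, 4 were among them, and Xdh, an interferon-induced gene placed in the redox group, was not, at -0.25. These groups were made after the values were seen, and 18.6% of members and 2.28% of all genes were as much lower. Lgals3bp stood at 9.48 in shRp58 cells and 10.26 in control vector cells, and Bst2 at 7.54 in shRp58 cells and 8.29 in control vector cells. F3 stood at 7.35 in shRp58 cells and 8.09 in control vector cells, and Lpl at 11.36 in shRp58 cells and 12.18 in control vector cells. All of these were lower in shRp58 cells. Usp18, F3 and Bst2 lay under 8 there but above the median of that array, 7.15.

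The other 6 of the 13 included Igfbp4 and Osmr, both of signalling. Igfbp4 stood at 8.83 in shRp58 cells and 9.54 in control vector cells, a difference of -0.71. Osmr stood at 8.91 in shRp58 cells and 9.59 in control vector cells, and Itgb8 at 7.60 in shRp58 cells and 8.28 in control vector cells. Serping1 stood at 8.87 in shRp58 cells and 9.53 in control vector cells, and Gpx3 at 9.53 in shRp58 cells and 10.15 in control vector cells. Irgm2, the last, stood at 7.85 in shRp58 cells and 8.47 in control vector cells, a difference of -0.62. The 8 members not lower in shRp58 cells were Trib2, Itgb2, Pank1, Slc39a8, Mfsd3, Rab32, Il1b and Fnip2. Of these, Slc39a8, Itgb2 and Il1b are among the 12 members below the array median on both stable lines, where sizes are not exact. No member was past 1.5-fold in 5 of the 11 role groups: lysosome, protein breakdown and growth restraint, matrix, transcription factors, and transport, traffic and other. The member furthest the other way was Trib2, at 7.87 in shRp58 cells and 7.43 in control vector cells, a difference of 0.44, and Csf2rb differed by -0.09, at 7.32 in shRp58 cells and 7.41 in control vector cells.

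**Figure D4:**
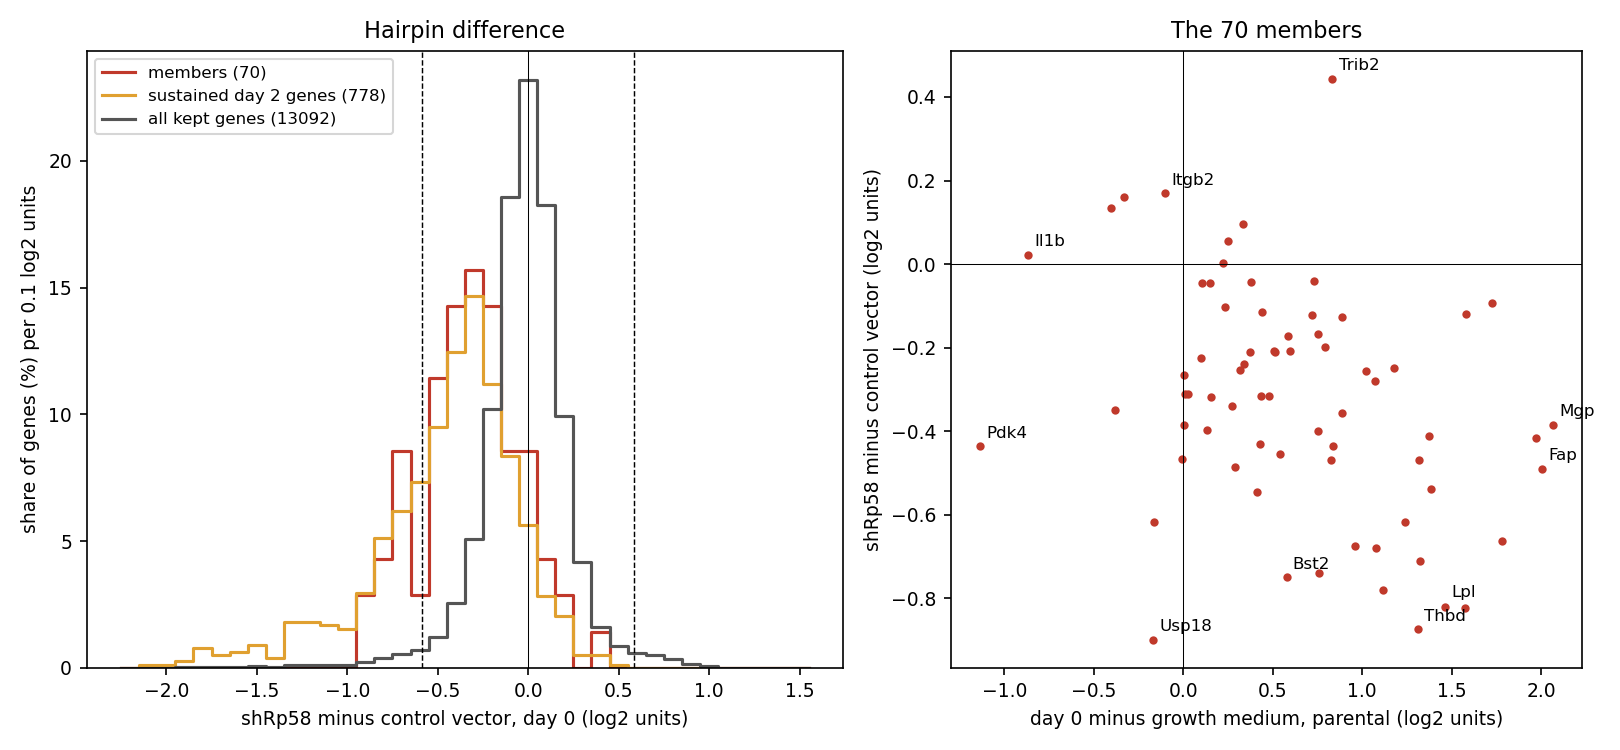
Left, shares of genes by shRp58 minus control vector (log2 units) for the 70 members, the 778 sustained genes and the 13092 kept genes; right, that difference against day 0 minus growth medium for each member. The members and the sustained genes both lie left of all genes, with medians of -0.32 and -0.38 against -0.01. On the right, the 33 members at least 1.5-fold above growth medium at day 0 have a median of -0.41 and the other 37 of -0.27.

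The left panel of the hairpin plot shows the shares just given, and the right panel sets the hairpin difference against the early difference in parental cells. Across the 70 members, day 0 minus growth medium and shRp58 minus control vector had a Pearson r of -0.35 and a Spearman rho of -0.36; the 70 points share the same 4 arrays and are not independent. The 33 members at least 1.5-fold above growth medium at day 0 had a median hairpin difference of -0.41, and 10 of them were 1.5-fold lower in shRp58 cells. The other 37 had a median of -0.27, and 3 were 1.5-fold lower. Against the hairpin difference, r was -0.14 for day 2 minus day 0 and -0.13 for day 2 minus day 4 over the same 70 members.

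**Figure D5:**
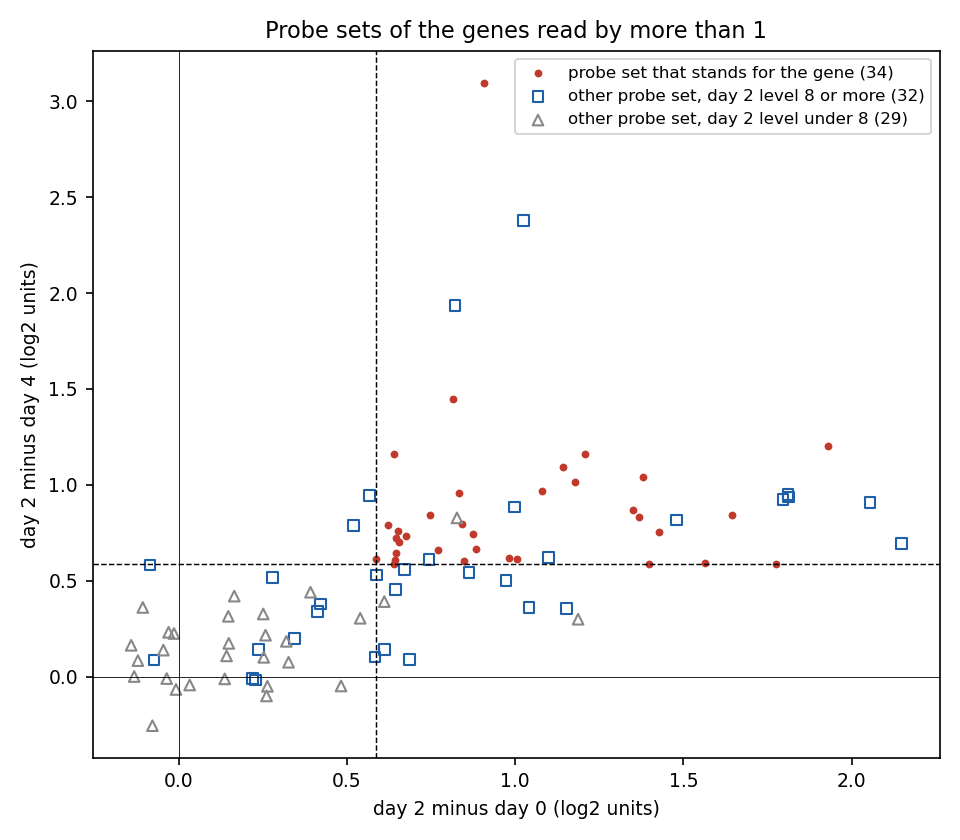
Day 2 minus day 0 against day 2 minus day 4 (log2 units) for every probe set of the 34 members read by more than 1; filled points stand for the gene, squares are other probe sets at 8 or more at day 2 and triangles are those under 8. Of the 32 squares, 28 have both differences above 0 and 11 meet both thresholds, while the triangles crowd near 0.

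How well a peak was read depended on the probe set. For 36 members the array has 1 probe set, and the other 34 had 61 further ones. Both differences were above 0 in 42 of the 61, both differences passed 1.5-fold in 12 of them in 7 genes, and none was past 1.5-fold in the opposite direction. The plot of all probe sets marks the 32 further sets at 8 or more at day 2. Of these, 28 had both differences above 0 and 11 met both thresholds, so sets at that level missed the rule too. A further set of Tor1aip1, at 10.02 on day 2, differed by -0.08 from day 0, and 1 of Antxr1, at 8.61, by -0.07. A further set of Spsb1, at 10.11, differed by 0.09 from day 4, and 1 of Fosl2, at 10.05, gave differences of 0.34 and 0.20. In Tbx3 a further set, at 9.04, gave differences of 0.28 and 0.52, and 1 of Gfra1, at 9.60, differed by 0.14 from day 4. Cp, Igfbp4, Csf2rb, Lpl, Gpm6b and Fbxo32 were the 6 genes whose peak met the rule in at least 1 further probe set. In Amhr2 a further set passed both differences but stood at 7.71 on day 2, under the level of 8.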

How the data were processed

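Expression was measured in 6 C2C12 cultures, each on 1 array, so the report gives differences between single arrays with no test. The authors deposited log2 values that they made with the RMA algorithm from 10 ug of cRNA per array, per the series' design text. Whether RMA was run once over all 6 arrays, and in which software and version, was not given in the sources used here. In all, the table held 45101 probe sets, of which the platform annotation gave 1 gene symbol for 34958, several for 932 and none for 9211. Each gene was represented by its brightest probe set (highest mean of the 6 arrays), which gave 18194 genes. Shares over all genes use the 13092 whose highest value reached 8. Entrez gene IDs of all 70 members matched the RefSeq gene table with the same symbol.

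The rule of selection and the 7 genes it leaves out by name are given in the report. Members, gene lists and comparisons were chosen with earlier results of these data known, and the grouping of members by role was made after their values were seen. The genes named are the 20 highest peaks, the members on a list, the 5 nearest the thresholds on each side and the members 1.5-fold apart between shRp58 and control vector; all other members were named by role after their values were seen. A ranking of other genes by likeness to the members' course is not given, since it would rest on 4 arrays.

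Alternatives were centring each array on its median, quantile normalization within the parental and the stable arrays, a loess correction of differences for level with a span of 0.3, other choices of probe set, a difference of at least 1.0, a day 2 level of 9 or none, and a promoter window without the 50 bases after the start. Scripts ran in Python 3.11.15 with numpy 2.4.6, pandas 2.3.3, scipy 1.17.1, statsmodels 0.14.6 and matplotlib 3.10.9. The rule was also run on simulated data with planted peaks, which checks the code only and not the membership in these data. Promoter windows came from RefSeq on GRCm38.p6.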

Additional observations from a re-analysis of the deposited data

How the results depend on the processing

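Every value rests on 1 array per group, so leaving out a replicate would leave no group to compare, and differences near 1.5-fold or at levels under 8 are not exact. No paired analysis was possible because the labels carry no replicate numbers and each group has 1 array. The number of members was 62 with arrays centred on their medians, 71 after quantile normalization (64 of the 70 kept) and 63 after the loess correction (58 kept), and 56 of the 70 met the rule under all 3, but 41 under every scaling and probe set choice tried. The 14 that failed under a scaling were 2900026A02Rik, Ctso, Fbxo32, Gfra1, Lrrc73, Mfsd3, Osmr, P3h3, Rbl2, Rtp4, Slc9a2, Spsb1, Tbx3 and Wnt9a. With the median of all probe sets of a gene, 55 genes met the rule, 45 of them members, and Pdgfra reversed, with a peak height of -0.11; its other 2 probe sets were under 8. At least 1.0 in both differences left 15 genes, of which 60.0% were 1.5-fold above growth medium at day 0 and 100% at day 2, with the same arrays and fewer genes. A day 2 level of 9 left 56 genes and no minimum gave 75. Members lower in shRp58 than in control vector cells numbered 61 to 63 under the scalings, with 13 at least 1.5-fold lower under each, and 59 and 12 with the median of probe sets. The median over all genes of day 0 minus growth medium, 0.10 as deposited, was -0.03 after quantile normalization, and 58 of the 70 members were then above growth medium, against 61 as deposited. Without the 50 bases after the start, the Rp58 core was in 1 of 52 windows, 1.92% against 2.93% of all genes, so its direction against all genes turned, and the interferon response motif was in 7 of 52, 13.5% against 2.92%. With 52 windows, such shares are too coarse to show stability.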
